A study of Homo sapiens with 6 samples.

Results

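The BCL2 family genes examined here were the 10 rows of the deposited table named BCL2, BCL2L1, BCL2A1, MCL1, BAX, BAK1, BCL2L11, PMAIP1, BBC3 and BID, out of 29571 rows. Members were chosen by gene name, each had 1 row, and all 10 passed a minimum of 1 FPKM, required in 3 or more of 6 columns, as did 12643 genes in all. FPKM is a read level scaled to transcript length and library depth, so levels of different genes can be set side by side. Poly(A) RNA was sequenced from DB, an established human diffuse large B-cell lymphoma line, in cells labelled DB_ZHX2_Mut4 (Mut4 cells) or DB_ZHX2 (ZHX2 cells). ZHX2 binds DNA through zinc fingers and homeodomains and regulates transcription. What the Mut4 form changes, how it was introduced and whether the cells were clones are not given in the sources used here, and no other group was analysed here. The series compared both cells to find pathways that differ, and its title names ferroptosis, a cell death by lipid peroxidation that is distinct from apoptosis.

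Proteins of the BCL2 family set whether the outer membrane of the mitochondrion stays intact. BCL2, BCL-XL (BCL2L1), BFL-1 (BCL2A1) and MCL1 keep it closed by holding the pore-forming effectors BAX and BAK (BAK1) in check. BH3-only proteins, among them BIM (BCL2L11), NOXA (PMAIP1), PUMA (BBC3) and BID, bind the survival proteins or the effectors and favour pore opening, cytochrome c release and caspase activation. NOXA binds mainly MCL1 and BFL-1, whereas PUMA and BIM bind all the survival proteins. In lymphomas of germinal centre origin, BCL2 is often held on by a translocation, and MCL1 is a short-lived protein that many B-cell lymphomas depend on.

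Within a group, the 3 deposited columns repeated 1 profile, scaled by a constant. Relative to replicate 1, the constants were 1.05 and 1.21 for the Mut4 columns and 1.33 and 0.897 for the ZHX2 columns, within a tolerance of 1e-06 at every member. Each group was therefore counted as 1 sample, its level is the mean of its 3 columns, and the differences below have no replicate check, error or p-value. The spread within a group shows these constants and not biological variation. Whether the columns of the groups overlap at a gene follows from these constants and the ratio of its means. Overlap, where given below, is therefore no further observation beside that ratio. Column sums ran from 294109 to 355116 FPKM in Mut4 cells and from 258080 to 383426 FPKM in ZHX2 cells, and total read depth is unknown. All 8 B-cell markers passed the minimum and summed to 867.3 FPKM in Mut4 cells, against 772.2 FPKM in ZHX2 cells. The markers of T cells with a row (4 of 6) summed to 0.928 FPKM (Mut4) and 1.08 FPKM (ZHX2), with CD3G at 0 in both. Those of NK cells (3 of 4) summed to 3.26 FPKM (Mut4) and 2.16 FPKM (ZHX2), with GNLY at 0 in both, and those of myeloid cells (4 of 5) to 3.71 FPKM (Mut4) and 4.40 FPKM (ZHX2). The 4 epithelial markers all passed and summed to 14.0 FPKM (Mut4) and 12.4 FPKM (ZHX2). The part of these markers in the ratios below was not tested.

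None of the 10 members was 1.5-fold apart between the cells. Folds are taken on the log2(FPKM + 1) scale as Mut4 over ZHX2, which understates the change of low genes. On this scale 2.54% of the 12643 genes were at least 1.5-fold higher and 2.56% at least 1.5-fold lower in Mut4 cells, so a count of 0 among 10 lies near the background. Member ratios ran from −0.47 for BBC3 to 0.34 for BCL2L1, with 7 above 0 and 3 below. Their median was 0.08, beside a median of 0.02 over all genes. The member farthest from 0 was BBC3, and 90.5% of all genes had a smaller absolute ratio. The order of levels was the same in both profiles, from PMAIP1 through MCL1, BCL2, BCL2L11, BCL2L1, BCL2A1, BAX, BAK1 and BBC3 to BID. Without independent replicates, it cannot be said which neighbours in that order differ beyond their spread.

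**Figure D1:**
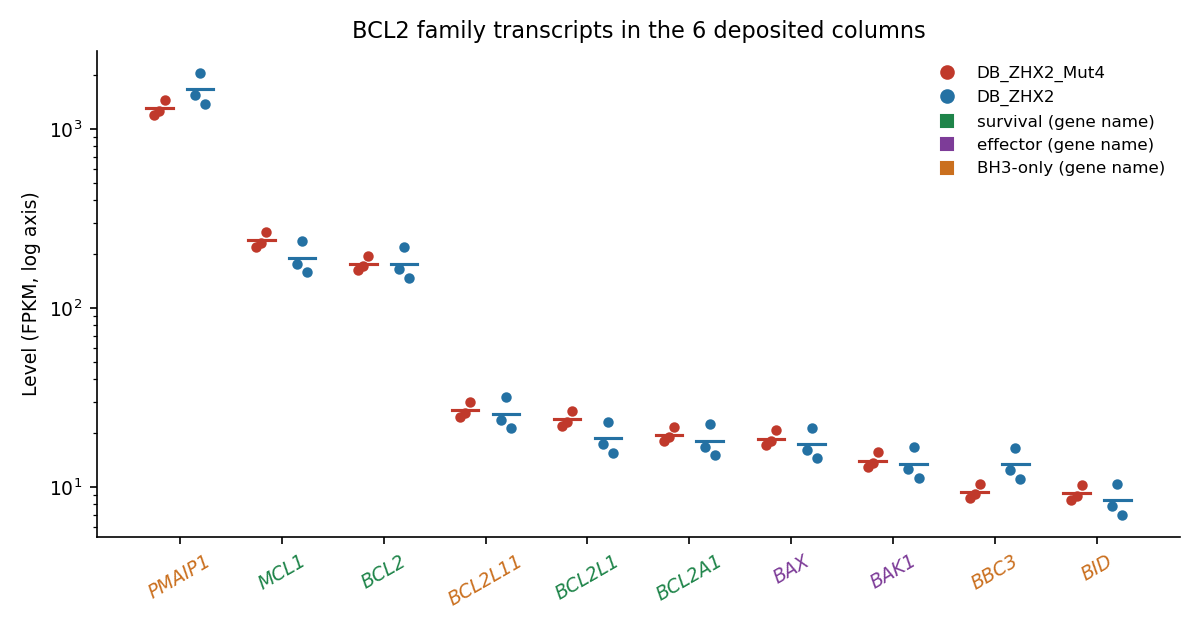
Level of each BCL2 family member (FPKM, log axis) in the 3 DB_ZHX2_Mut4 columns and the 3 DB_ZHX2 columns, with bars at the group means and gene names coloured by role. Columns of a group are constant multiples of 1 profile, PMAIP1 stands highest at means of 1307 FPKM (Mut4) and 1667 FPKM (ZHX2), and the columns of BBC3 alone do not overlap between the groups. Whether columns overlap follows from the constants and the ratio of the means.

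**Figure D2:**
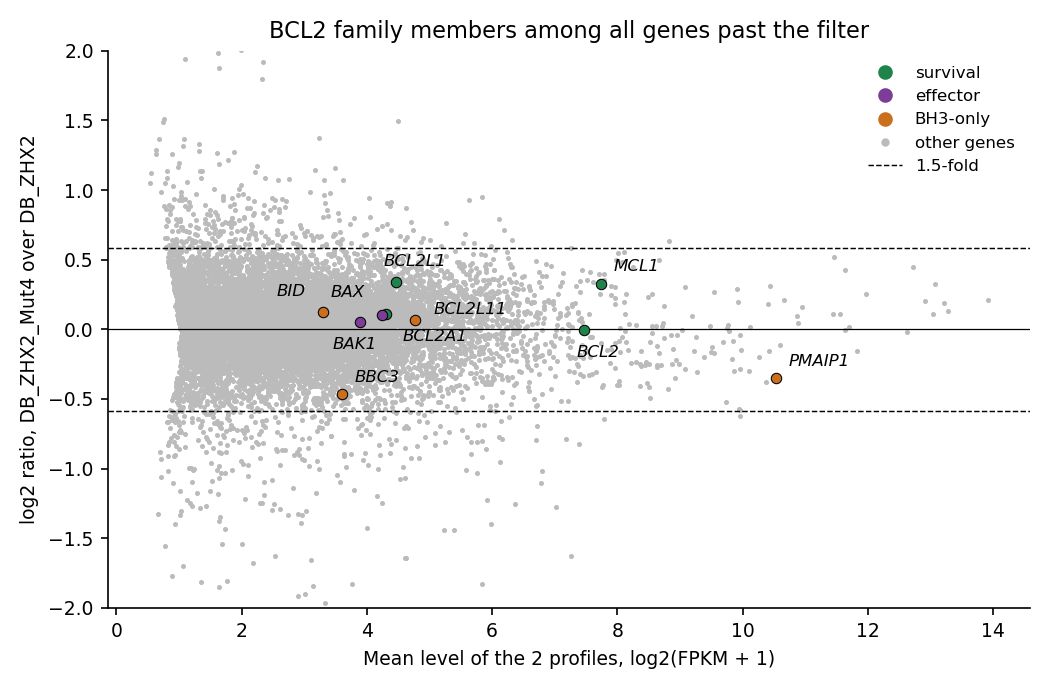
Log2 ratio of Mut4 over ZHX2 cells against the mean level on the log2(FPKM + 1) scale for genes that passed the filter (grey, 18 lie outside the axis limit of 2) and for the 10 members (coloured by role). All members lie between the dashed lines at 1.5-fold, with BCL2L1 and MCL1 highest and PMAIP1 and BBC3 lowest.

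Among the survival genes, MCL1 and BCL2L1 were somewhat higher in Mut4 cells and BCL2 was nearly equal. MCL1, on chromosome 1 from 150574551 to 150579738, was listed at 220.1, 231.7 and 265.7 FPKM across the Mut4 columns, against 177.0, 235.9 and 158.8 FPKM across the ZHX2 columns. The groups overlapped only through ZHX2 replicate 2, which lay above Mut4 replicates 1 and 2, while ZHX2 replicates 1 and 3 were below every Mut4 column. The means were 239.2 FPKM (Mut4) and 190.6 FPKM (ZHX2), 1.25-fold higher in Mut4 cells (log2 ratio 0.33). BCL2L1, on chromosome 20 from 31664452 to 31723989, was listed at 21.9, 23.1 and 26.5 FPKM across the Mut4 columns, against 17.3, 23.1 and 15.6 FPKM across the ZHX2 columns. Again only ZHX2 replicate 2 reached the Mut4 range. Its means of 23.8 FPKM (Mut4) and 18.7 FPKM (ZHX2) gave a 1.26-fold higher level in Mut4 cells (log2 ratio 0.34), and 1397 of the 12643 genes had a higher ratio. The table gives 1 value per gene, so the long survival form of BCL2L1 and its short death-promoting splice form were not separated.

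BCL2, on chromosome 18 from 63123346 to 63320128, was the third most abundant member. It was listed at 162.7, 171.2 and 196.4 FPKM across the Mut4 columns, against 164.4, 219.2 and 147.6 FPKM across the ZHX2 columns. The columns of the groups overlapped throughout, and the means of 176.8 FPKM (Mut4) and 177.1 FPKM (ZHX2) gave a log2 ratio of −0.0023. BCL2A1, an NF-kB target that protects activated B cells, lies on chromosome 15 from 79960889 to 79971446. It was listed at 18.0, 19.0 and 21.8 FPKM across the Mut4 columns, against 16.8, 22.4 and 15.0 FPKM across the ZHX2 columns, also overlapping, with means of 19.6 FPKM (Mut4) and 18.1 FPKM (ZHX2) and a log2 ratio of 0.11. Summed over the 4 survival genes, the level was 459.4 FPKM in Mut4 cells, against 404.4 FPKM in ZHX2 cells. BCL2 was 146th in Mut4 cells and 157th in ZHX2 cells among all rows of the table, and MCL1 was 121st (Mut4) and 144th (ZHX2). In a bulk profile, fewer expressing cells and less RNA per cell cannot be told apart.

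The effectors differed little. BAX, on chromosome 19 from 48954815 to 48961798, was listed at 17.2, 18.1 and 20.7 FPKM across the Mut4 columns, against 16.1, 21.5 and 14.4 FPKM across the ZHX2 columns. BAK1, on chromosome 6 from 33572547 to 33580293, was listed at 12.9, 13.6 and 15.6 FPKM across the Mut4 columns, against 12.5, 16.7 and 11.3 FPKM across the ZHX2 columns. For both genes each Mut4 column lay inside the ZHX2 range, and the log2 ratios were 0.10 and 0.05. BAX exceeded BAK1 1.33-fold in Mut4 cells and 1.28-fold in ZHX2 cells. The pseudogene BAK1P1 was listed at 0.284 FPKM in Mut4 cells, against 0.409 FPKM in ZHX2 cells, far below BAK1 itself.

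PMAIP1 was by far the most abundant member and BBC3 had the lowest ratio, and both BH3-only genes were lower in Mut4 cells. PMAIP1, on chromosome 18 from 59899948 to 59904306, was listed at 1203, 1266 and 1452 FPKM across the Mut4 columns, against 1548, 2064 and 1389 FPKM across the ZHX2 columns. Of the ZHX2 columns only replicate 3 fell inside the Mut4 range. The means were 1307 FPKM (Mut4) and 1667 FPKM (ZHX2), 1.28-fold lower in Mut4 cells (log2 ratio −0.35). PMAIP1 ranked 24th among all rows in Mut4 cells and 20th in ZHX2 cells, and it made up 0.409% (Mut4) and 0.538% (ZHX2) of all summed FPKM. It also held most of the family's signal, since the BH3-only genes together had 73.3% of the FPKM of the 10 members in Mut4 cells and 79.8% in ZHX2 cells. Without PMAIP1 the other 3 BH3-only genes summed to 45.4 FPKM (Mut4) and 47.4 FPKM (ZHX2).

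BBC3, which is induced by stress through CHOP and FOXO factors, lies on chromosome 19 from 47220822 to 47232766. It was listed at 8.64, 9.09 and 10.4 FPKM across the Mut4 columns, against 12.4, 16.5 and 11.1 FPKM across the ZHX2 columns. Every Mut4 column was below every ZHX2 column, which held for no other member. As the columns of a group are multiples of 1 profile, this gap restates the ratio of the means. Such a gap in the same direction was present at 8.86% of all genes, and a gap in the opposite direction at 11.0% of genes and at 0 members. The means of 9.39 FPKM (Mut4) and 13.4 FPKM (ZHX2) gave a 1.38-fold lower level in Mut4 cells (log2 ratio −0.47, or −0.51 with no pseudocount), and 559 genes had a lower ratio. The rank of BBC3 among all rows was 4256 in Mut4 cells and 2964 in ZHX2 cells.

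BCL2L11 and BID, the remaining BH3-only genes, were close between the cells. BCL2L11, on chromosome 2 from 111119378 to 111168447, was listed at 24.7, 26.0 and 29.8 FPKM across the Mut4 columns, against 23.8, 31.7 and 21.3 FPKM across the ZHX2 columns. BID, on chromosome 22 from 17734138 to 17774770 and needing cleavage by caspase-8 for full activity, was listed at 8.49, 8.94 and 10.3 FPKM across the Mut4 columns, against 7.80, 10.4 and 7.002 FPKM across the ZHX2 columns. The groups overlapped for both genes, with log2 ratios of 0.06 and 0.12. Among the BH3-only genes, those below 0 were thus PMAIP1 and BBC3, and those above 0 were BCL2L11 and BID. Transcripts listed for the members in the table ran from 2 for BAK1 to 23 for BCL2L11. Exons of BCL2L1, MCL1, BAK1 and BCL2L11 overlap those of ABALON, ADAMTSL4-AS1, GGNBP1 and MIR4435-2HG, and those of BBC3 overlap microRNA genes. The 4 named neighbours were listed at 0.333, 0.351, 0.254 and 0.394 FPKM in Mut4 cells, against 0.358, 0, 0.0264 and 0.317 FPKM in ZHX2 cells, all far below the members. All coordinates are GENCODE v29 on GRCh38.

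**Figure D3:**
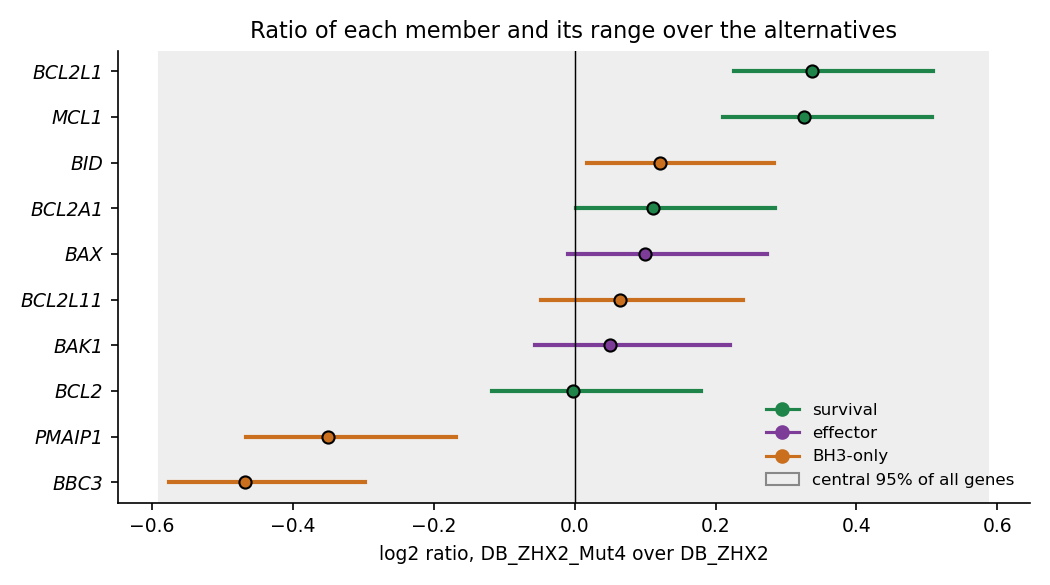
Log2 ratio of Mut4 over ZHX2 cells for each member (point), with the lowest and highest value over 12 other ways of processing the columns (line), and the range holding the central 95% of all genes, −0.59 to 0.59 (grey). The lines of BCL2L1 and MCL1 stay above 0 and those of PMAIP1 and BBC3 below it, whereas those of BAX, BCL2L11, BAK1 and BCL2 cross it.

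The sides of BCL2L1, MCL1, PMAIP1 and BBC3 were kept when the columns were handled differently. Over 12 alternatives BCL2L1 stayed between 0.23 and 0.51, MCL1 between 0.21 and 0.51, PMAIP1 between −0.47 and −0.17 and BBC3 between −0.58 and −0.30. BCL2A1 (0.0014 to 0.28) and BID (0.02 to 0.28) also stayed above 0, but came close to it. Ratios of BCL2, BAX, BAK1 and BCL2L11 changed sign in 1 or more alternatives. In none of the 120 recomputed member ratios was 1.5-fold reached, but these were not independent checks. Changing the filter left every member ratio as it was. Leaving out a column multiplies a whole profile by a constant. Without ZHX2 replicate 2 the median of all genes was 0.17, and 720 genes lay 1.5-fold or more above and 202 below in Mut4 cells, beside 321 and 324 with all columns.

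Ratios between members within 1 profile do not depend on the constants, since both genes carry the same factor. Unlike the folds above, they are taken on FPKM with no pseudocount. PMAIP1 was 5.46 times MCL1 in Mut4 cells and 8.75 times MCL1 in ZHX2 cells, a 1.60-fold lower ratio in Mut4 cells. Relative to BCL2L1, PMAIP1 stood at 54.8 in Mut4 cells and 89.3 in ZHX2 cells, 1.63-fold lower. BBC3 stood at 0.394 of BCL2L1 in Mut4 cells, against 0.716 in ZHX2 cells, 1.82-fold lower. These pairs join the BH3-only genes that were lower with the survival genes that were higher. Relative to MCL1, BBC3 was at 0.0392 in Mut4 and 0.0701 in ZHX2 cells, 1.79-fold lower. Relative to BCL2A1 it was 1.54-fold lower, and relative to BCL2 1.42-fold lower.

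Of the 16 ratios of a BH3-only gene over a survival gene, 13 were lower and 3 higher in Mut4 cells, and 5 (31.25%) were at least 1.5-fold apart, 3 with BBC3 and 2 with PMAIP1. Among all 45 pairs of members, 7 (15.6%) were at least 1.5-fold apart. Over all pairs of genes that passed the filter this share was 23.8%. It lies above the share of all member pairs and below that of the BH3-only over survival pairs. Neither difference was tested. The share over all genes, also with no pseudocount, takes in genes near 1 FPKM. The lowest mean of a member was 8.40 FPKM (BID, ZHX2 cells), so the shares cover unlike levels. BCL2L11, the most abundant BH3-only member after PMAIP1, stood at 0.152 of BCL2 in Mut4 cells and 0.145 in ZHX2 cells. Its ratio to MCL1 was 0.112 in Mut4 cells and 0.134 in ZHX2 cells. MCL1 was 1.35 times BCL2 in Mut4 cells and 1.08 times in ZHX2 cells. The pairs were not independent, as each gene entered 9 of them, and these are ratios of transcripts, not of proteins.

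**Figure D4:**
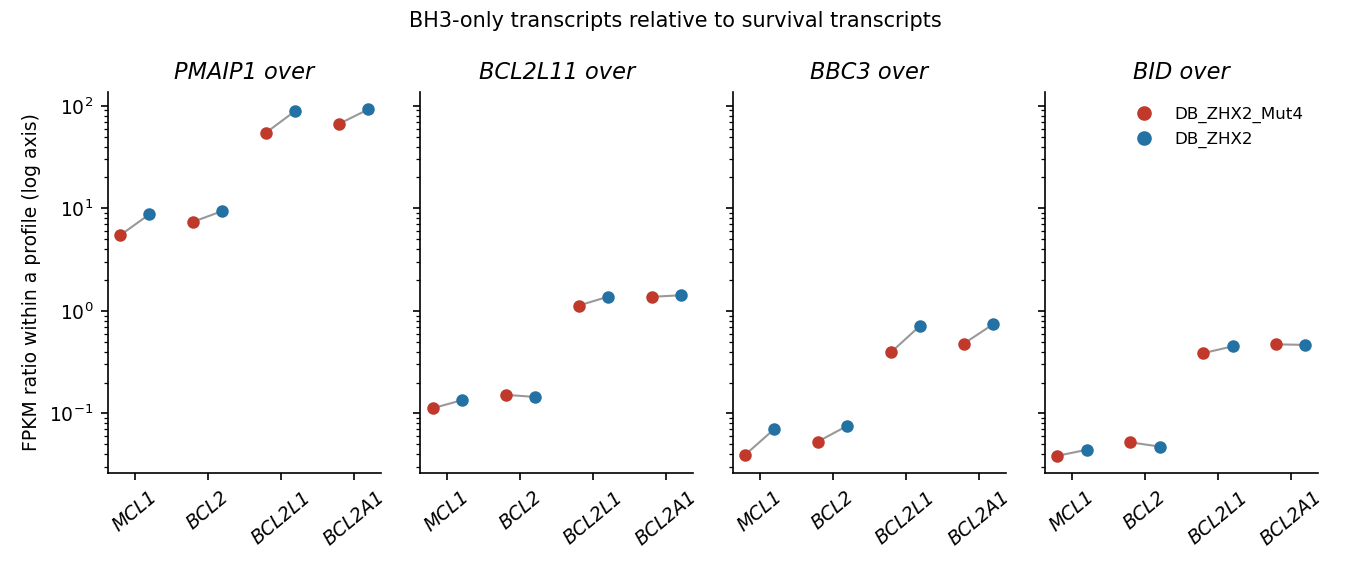
FPKM of each BH3-only gene divided by that of each survival gene within a profile (log axis), in DB_ZHX2_Mut4 (red) and DB_ZHX2 (blue) cells. All 8 ratios of PMAIP1 and BBC3 are lower in Mut4 cells, and those of BCL2L11 and BID differ less, with 3 of their 8 higher in Mut4 cells.

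Of 13 further genes of the family, 10 passed the filter, with 0 at least 1.5-fold higher, 1 lower in Mut4 cells and a median log2 ratio of −0.09. HRK, a BH3-only gene best known from neuronal cell death, was the exception. It was listed at 2.49, 2.62 and 3.002 FPKM across the Mut4 columns, against 7.29, 9.71 and 6.54 FPKM across the ZHX2 columns, with no overlap. Such a gap was present at 8.86% of all genes in this direction and at 11.0% in the opposite direction. Among the further family genes that passed, BNIP3 also had a gap in this direction and BCL2L10 had one in the opposite direction. HRK was 2.39-fold lower in Mut4 cells (log2 ratio −1.26, or −1.54 with no pseudocount), and 49 genes had a lower ratio. In the authors' deposited table HRK had a q-value of 8.39e-11 and was marked as significant. Of the lists below, DDIT3 was marked there too, with a q-value of 2.97e-10. The mitophagy receptors BNIP3 and BNIP3L had log2 ratios of −0.53 and −0.38, from 9.703 and 11.97 FPKM in Mut4 cells, against 14.46 and 15.9 FPKM in ZHX2 cells.

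The remaining relatives were nearer to 0 or low. BMF and BIK, which are BH3-only genes, were the most abundant in this list, at 55.9 and 20.7 FPKM in Mut4 cells, against 55.5 and 20.2 FPKM in ZHX2 cells. Their log2 ratios were 0.01 and 0.03. BCL2L12 and BCL2L10 each had 0.37, BAD, a BH3-only gene controlled by phosphorylation, 0.11, and BCL2L13 −0.18. BCL2L2, which encodes the survival protein BCL-w, was at 2.37 FPKM in Mut4 cells, against 3.11 FPKM in ZHX2 cells (−0.29). Its readthrough record BCL2L2-PABPN1 had a ratio of 0.85 in place of −0.29, with 6.34 FPKM in Mut4 against 3.06 FPKM in ZHX2 cells, and shares exons with BCL2L2, so how reads were divided between them is uncertain. BOK, BCL2L14 and BCL2L15 did not pass the filter, at 0 to 0.228 FPKM.

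Promoter sequence from RefSeq was matched for 9 of the 10 members and for HRK. The stretches before the annotated first exons of the BH3-only genes that were lower, PMAIP1, BBC3 and HRK, are set beside that of BCL2L1, which was higher, so that the letters can be compared. Each is read 5′ to 3′ on the strand of the gene on GRCh38.p14. The stretches are chr18:59899746-59899947 on the plus strand for PMAIP1, and chr19:47232767-47232917, chr12:116881442-116881691 and chr20:31723990-31724213 on the minus strand for BBC3, HRK and BCL2L1. Capitals mark matches, on either strand, to CGTCA (the core of sites bound by ATF and CREB factors), CACGTG (the E-box), TGANTCA (AP-1), CCAAT (NF-Y) or TGATGNAAT (the CHOP and ATF4 composite site). No 2 matches overlap in these stretches.
PMAIP1: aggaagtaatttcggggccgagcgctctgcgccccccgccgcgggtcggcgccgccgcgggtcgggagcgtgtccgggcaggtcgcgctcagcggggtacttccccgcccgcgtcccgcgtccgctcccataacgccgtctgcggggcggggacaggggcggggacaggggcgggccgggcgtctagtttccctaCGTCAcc
BBC3: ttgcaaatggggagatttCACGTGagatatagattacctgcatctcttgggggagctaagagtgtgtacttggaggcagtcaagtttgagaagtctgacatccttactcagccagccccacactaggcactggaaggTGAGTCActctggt
HRK: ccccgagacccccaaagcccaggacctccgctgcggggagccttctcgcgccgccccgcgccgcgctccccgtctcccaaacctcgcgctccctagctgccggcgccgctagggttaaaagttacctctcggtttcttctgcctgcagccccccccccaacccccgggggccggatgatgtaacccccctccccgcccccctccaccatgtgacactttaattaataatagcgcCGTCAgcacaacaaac
BCL2L1: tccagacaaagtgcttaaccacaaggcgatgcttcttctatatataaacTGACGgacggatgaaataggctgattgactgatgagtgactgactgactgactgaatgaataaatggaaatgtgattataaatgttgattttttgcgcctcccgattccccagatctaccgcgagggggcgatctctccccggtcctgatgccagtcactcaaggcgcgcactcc

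PMAIP1, HRK and BCL2L1 each held 1 match to CGTCA there, and BBC3 held 1 E-box and 1 AP-1 match. These stretches were few and of unequal length, and a further RefSeq window of BCL2L1 held 0 matches to CGTCA. MCL1, which was also higher, had no promoter sequence to compare. Whether this core goes with the direction of a gene was not tested. Over the full 250 bases before each RefSeq start, CGTCA was present for 4 of 9 members (BAX, BCL2, BCL2L1 and PMAIP1), beside 24.9% of 27305 genes. CCAAT was present for 4 of 9 (BAK1, BAX, BBC3 and BCL2L11), beside 37.0% of genes. The E-box was present for 3 of 9 (BAX, BBC3 and BID), beside 7.73% of genes, and the BAX window held 4. A gene counted if any of its RefSeq windows matched, and for BID the E-box was in some windows and not in others. The 27305 genes were not limited to those that passed the filter. AP-1 matched in BBC3 alone, beside 8.06% of genes, and the composite site in 0 members, beside 1.09% of genes. A match is a run of letters and not a measured binding site, and no match says only that these letters are not in this window.

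Downstream of the mitochondrion, most genes differed little. All 23 genes of the list of apoptosome, caspases and their inhibitors passed the filter, with 0 at least 1.5-fold higher, 1 lower and a median of 0.03. XIAP, which inhibits caspases directly, had 3.69 FPKM in Mut4 against 6.24 FPKM in ZHX2 cells, 1.54-fold lower (log2 ratio −0.63). Without Mut4 replicate 1 or ZHX2 replicate 2 it was no longer 1.5-fold apart, at −0.58 and −0.47. The most abundant genes of this list were the porins VDAC1 and VDAC2, cytochrome c (CYCS) and the inhibitor of apoptosis BIRC3. Their levels were 92.9, 41.2, 37.4 and 24.2 FPKM in Mut4 cells, against 75.8, 45.6, 39.4 and 17.4 FPKM in ZHX2 cells.

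The death receptor list also had 1 gene past 1.5-fold. TNFRSF10B, the TRAIL receptor DR5 and a known CHOP target, was at 18.8 FPKM in Mut4 cells, against 31.3 FPKM in ZHX2 cells, 1.63-fold lower (log2 ratio −0.71), but at −0.53 without ZHX2 replicate 2. Of the 9 of 10 genes that had a row, all passed, 7 had ratios below 0 and 2 above, and the median was −0.11. The adaptor FADD had 16.8 FPKM in Mut4 against 20.2 FPKM in ZHX2 cells, and the receptor TNFRSF10A 10.1 FPKM (Mut4) against 12.8 FPKM (ZHX2). The adaptor TRADD had 4.18 FPKM in Mut4 against 4.44 FPKM in ZHX2 cells. CFLAR, which blocks caspase-8, had 9.39 FPKM in Mut4 against 7.602 FPKM in ZHX2 cells (0.27). TNFRSF10B shares exonic positions with the opposite-strand gene RHOBTB2.

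Among 16 regulators of transcription of the members, the stress factor DDIT3 (CHOP) differed and the NF-kB factors did not reach 1.5-fold. DDIT3 was at 24.4 FPKM in Mut4 cells, against 68.2 FPKM in ZHX2 cells, 2.72-fold lower (log2 ratio −1.44). The list had 0 genes at least 1.5-fold higher, 1 lower and a median of −0.05. ATF4, MYC and TP63 were also abundant, at 322.0, 37.8 and 30.9 FPKM in Mut4 cells, against 378.2, 31.4 and 32.3 FPKM in ZHX2 cells. DDIT3 shares exonic positions with the opposite-strand genes MARS and MBD6. They were listed at 53.2 and 4.46 FPKM in Mut4 cells, against 53.2 and 4.91 FPKM in ZHX2 cells. The labels do not state whether reads were counted by strand. DDIT3 also shares exonic positions with the same-strand gene AC022506.1, which has no listed level and which strand would not separate.

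Of the regulators of member protein stability, 10 of 11 passed, with 0 at least 1.5-fold higher and 1 lower. BAG3, a co-chaperone that stabilises MCL1 and other survival proteins, was at 4.42 FPKM in Mut4 cells, against 7.87 FPKM in ZHX2 cells, 1.64-fold lower (log2 ratio −0.71, or −0.55 without ZHX2 replicate 2). HUWE1, a ubiquitin ligase of MCL1, and USP9X, which removes ubiquitin from it, had log2 ratios of 0.11 and −0.0075. BAG6, HUWE1, MDM2 and USP9X were the most abundant, at 31.3, 23.0, 12.3 and 10.99 FPKM in Mut4 cells, against 28.98, 21.2, 17.0 and 11.1 FPKM in ZHX2 cells. The median of the list was −0.02. Over the 5 lists together, 68 of 72 genes with a row passed, 5 (one in each list) were at least 1.5-fold lower and 0 higher in Mut4 cells, beside 2.56% of all genes lower and 2.54% higher, and the median was −0.03. The lists were drawn up with earlier results of these data known, among them the lower level of DDIT3, so the one-sided count is a description and not independent evidence of a direction.

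**Figure D5:**
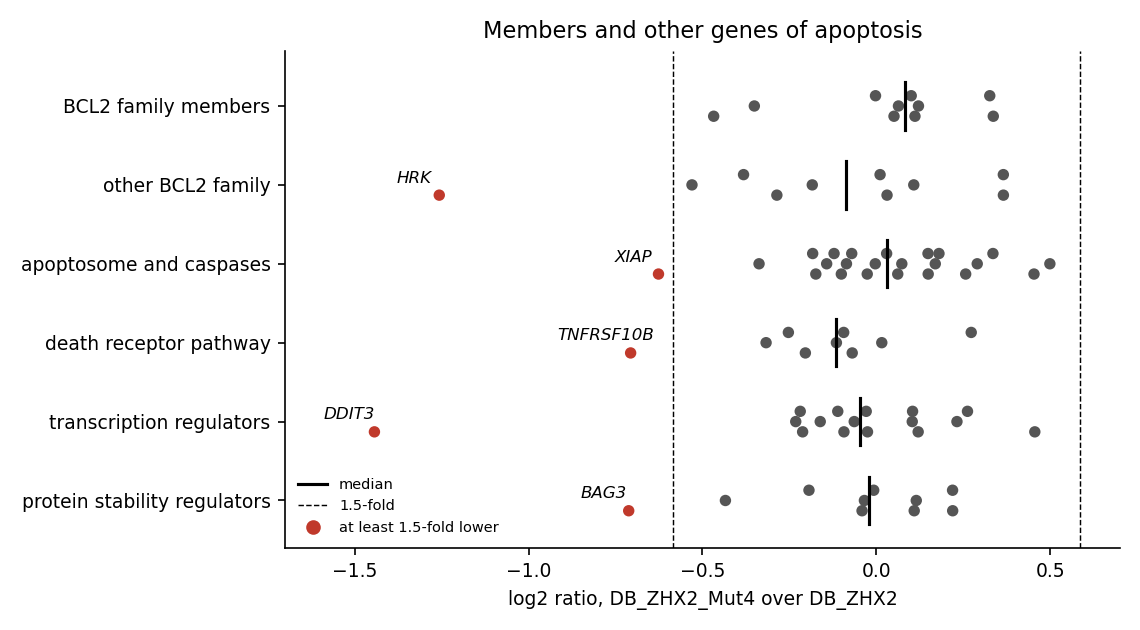
Log2 ratios of Mut4 over ZHX2 cells for the 10 members and for the genes of 5 further apoptosis lists that passed the filter, with the median of each list (bar) and 1.5-fold (dashed). Each further list has 1 gene at least 1.5-fold lower in Mut4 cells (red) and the members have 0, beside 2.56% of all genes, and whether the lists differ from the members was not tested.

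In the authors' deposited table, 376 of the 29571 rows were marked as significant, and 0 of the 10 members. At a share this small, 0 among 10 lies near the background. The lowest q-value of a member there was 0.116, for BBC3, followed by 0.327 for PMAIP1, 0.431 for BCL2L1 and 0.477 for MCL1 in the authors' deposited table. That table's ratios run the other way, as ZHX2 replicate 1 over Mut4 replicate 1, and were 1.44 for BBC3 and 0.790 for BCL2L1. Of the list genes past 1.5-fold, HRK and DDIT3 were marked there, at ratios of 2.93 and 2.82. BAG3, XIAP and TNFRSF10B were not, at ratios of 1.80, 1.71 and 1.68 and q-values of 0.00287, 0.00583 and 0.00708. Whether the mark needs a minimum fold besides a low q-value is not known here. The labels do not state how p-values were obtained from profiles without independent replicates.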

How the data were processed

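RNA-seq of poly(A) RNA from DB cells was deposited as 1 table, with 3 libraries labelled per group. Per the file headers, each library has FPKM values, and the authors' comparison appears as a linear ratio (fold), a log2 ratio, a p-value and a q-value, all as deposited. The comparison columns served only to find mismatched rows and to describe that table. Tools listed in the submitters' processing notes are edgeR, StringTie, HISAT2 and fastp, on GRCh38, without versions. No counts were given, so depth and counting intervals are unknown.

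The columns of a group were constant multiples of one another and were averaged into 1 profile (n = 1). The planned limma fit was therefore not run. Ratios between the groups are log2(FPKM + 1) of DB_ZHX2_Mut4 minus DB_ZHX2, whereas ratios between members used FPKM with no pseudocount. Group ratios cover 12643 genes with at least 1 FPKM in at least 3 of 6 columns. Left out were 3 rows (ATG5, ACSL1 and SLC7A11) whose values contradict one another. Named genes were all members, all further family genes that passed, and per list those 1.5-fold apart and the next 4 by level. Members and lists were chosen with earlier results of these data known, and BOK, BCL2L14, BCL2L15, ENDOG, E2F1 and genes overlapping others were named after their values were seen. FASLG, CD2, CD5, KLRD1 and CSF1R were not analysed here, and 1 gene of the lists is not reported here. The steps recovered known changes in simulated profiles, but these changes were set well past 1.5-fold. Their recovery therefore says nothing about differences as small as those of the members. Python 3.11.15, numpy 2.4.6, pandas 2.3.3 and matplotlib 3.10.9 were used.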

Additional observations from a re-analysis of the deposited data

How the results depend on the processing

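No paired analysis was possible because each group amounts to 1 profile, which also leaves no test to block. The count of members 1.5-fold apart was 0 in each of 13 alternatives, and 120 of 120 recomputed member ratios stayed under 1.5-fold. These were not independent checks. Changing the filter left every member ratio as it was, and the 2-fold threshold could only keep the count at 0. Leaving out a column, or centring on the median of all genes, shifted nearly all ratios alike. The members' median, 0.08, ranged from −0.028 to 0.26 as columns were left out, and that of all genes from −0.07 to 0.17. Genes 1.5-fold higher and lower in Mut4 cells numbered 691 and 561 at a pseudocount of 0.1, and 128 and 171 with a filter at 5 FPKM. After rescaling columns to a common sum, 470 were higher and 575 lower. At 2-fold there were 56 and 90. Leaving out a column gave 222 to 720 higher and 202 to 502 lower. Of the 5 lists, 2 genes (HRK and DDIT3) were lower at 2-fold. Without a column, 0 to 3 were higher and 2 to 6 lower, and the 3 higher, BIRC3, E2F1 and ENDOG, appeared when ZHX2 replicate 2 was left out, which raises all ratios. Member pairs 1.5-fold apart, a count added after seeing the data, numbered 7, and 8 after quantile normalization.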
